A study of Mus musculus with 8 samples.

Results

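The genes described here encode the machinery that copies DNA and the regulators that admit a cell to S phase. They are 47 genes named in a list (origin licensing, helicase activation, polymerases, sliding clamp, single-strand binding and Okazaki fragment processing, nucleotide supply and G1/S control), matched by gene symbol in a table of 54532 genes. All 47 were found, and all 47 were among the 14723 genes with enough counts to be tested. The cells were cultured mouse cardiac fibroblasts of the C57BL/6 strain at passage 2. In 4 libraries the cells had received a plasmid carrying murine Thbs4, labelled pAAV.CMV.SV40.THBS4-HA.SV40(polyA), which encodes the secreted matricellular protein thrombospondin-4 (TSP-4) behind a CMV promoter. In the other 4 libraries they had received an empty plasmid, pAAV-CA, and the titles call these cells non-stimulated. All cells, in both groups, went through transfection, 12 h in standard medium without antibiotics and 24 h without serum before RNA was taken. The plasmids are different constructs, so each difference below is one between plasmids. In each group the libraries carry the letters A to D, and the labels do not say what a letter stands for, nor whether separate animals or cultures gave the libraries. The p-values therefore measure the spread between these libraries, which may be technical.

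DNA is licensed for replication in G1, when the origin recognition complex, Cdc6 and Cdt1 load the ring-shaped MCM helicase onto chromatin. At the start of S phase Cdc45 and the GINS complex activate that helicase, polymerase alpha with its primase lays down primers, and polymerases delta and epsilon extend them while held by the PCNA clamp. Cyclin D with Cdk4 and cyclin E with Cdk2 release E2F transcription factors, which switch on many of these genes. Cultured fibroblasts that lose serum leave the cycle, and the transcripts of this machinery are widely used as markers of cells in S phase. In bulk RNA, fewer cells in S phase and less RNA per cell cannot be told apart.

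The promoters of these genes are known for E2F sites, so promoter sequence is shown here for members whose level differed between the letters, the main source of variation described below. RefSeq promoters of GRCm38.p6, from 250 bases before a transcription start to 50 after it, were matched by symbol for 37 of the 47 genes. Gins4, Gins2, Ccnd1, Mcm4, Gins1, Prim2, Ccne2, Rfc2, Pole and Ccnd2 were not matched. The motif searched was the E2F octamer in the forms TTTCCCGC, TTTGGCGC, TTTGCCGC and TTTCGCGC, on both strands, and matches may overlap each other. It was present in 15 of the 37 genes (40.5%), against 704 of 27025 genes (2.6%) with a RefSeq promoter and 2.26% of the 32851 promoters of this length. The 15 were Orc1, Cdc6, Cdt1, Mcm3, Mcm5, Mcm6, Mcm7, Gins3, Pola1, Pold1, Pole2, Rfc3, Lig1, Cdk2 and Uhrf1. A match is a run of letters and not a measured binding site. The starts are those of RefSeq, and some windows lie inside the gene. The E2f1 window, without a match, is chr2:154569377-154569676, within the gene at chr2:154559407-154569892. The Cdc6 window, chr11:98907901-98908200, likewise lies within the gene at chr11:98907801-98923940. The Mcm5 window, chr8:75109259-75109558, instead ends before the first base of the gene, 75109569. Among the genes with sequence printed here, the 50 bases after the start were not found in a GENCODE M21 transcript for Mcm5, Mcm6, Cdk2 and Pola2. For the 10 of the 15 genes that differed between letters, a stretch around a match is printed 5′ to 3′ on the strand of the gene, with the octamers in capitals. For Mcm5 and Mcm6 the capitals are 2 overlapping matches, one on each strand. The stretches are at chr1:20820266-20820295 (minus strand, Mcm3), chr8:75109340-75109379 (plus, Mcm5), chr1:128359792-128359831 (minus, Mcm6), chr5:138172025-138172064 (minus, Mcm7), chr11:98907997-98908036 (plus, Cdc6), chrX:93632270-93632309 (minus, Pola1), chr7:44548766-44548795 (minus, Pold1), chr7:13278846-13278875 (plus, Lig1), chr10:128705168-128705207 (minus, Cdk2) and chr17:56304112-56304151 (plus, Uhrf1).
Mcm3: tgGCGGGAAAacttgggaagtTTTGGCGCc
Mcm5: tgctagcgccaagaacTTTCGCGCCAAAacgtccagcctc
Mcm6: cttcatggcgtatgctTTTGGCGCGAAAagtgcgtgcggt
Mcm7: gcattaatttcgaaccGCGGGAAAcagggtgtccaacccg
Cdc6: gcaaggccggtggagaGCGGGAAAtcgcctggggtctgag
Pola1: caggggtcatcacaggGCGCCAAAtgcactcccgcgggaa
Pold1: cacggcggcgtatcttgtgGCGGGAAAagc
Lig1: aagtgcGCGCGAAAtctgtgtggcgcgaat
Cdk2: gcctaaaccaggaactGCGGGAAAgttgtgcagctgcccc
Uhrf1: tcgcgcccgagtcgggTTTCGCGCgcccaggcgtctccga

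Rrm2, the gene with the smallest p between letters, and Pola2, the gene with the smallest p between plasmids, hold none of these 4 octamers. The 250 bases before their starts are printed for comparison, at chr12:24708004-24708253 (plus strand, Rrm2) and chr19:5964207-5964456 (minus strand, Pola2). The Rrm2 sequence holds the letters CCAAT, the core of the box bound by NF-Y. CCAAT was present on either strand in 23 of the 37 genes (62.2%), against 41.1% of all genes with a promoter.
Rrm2: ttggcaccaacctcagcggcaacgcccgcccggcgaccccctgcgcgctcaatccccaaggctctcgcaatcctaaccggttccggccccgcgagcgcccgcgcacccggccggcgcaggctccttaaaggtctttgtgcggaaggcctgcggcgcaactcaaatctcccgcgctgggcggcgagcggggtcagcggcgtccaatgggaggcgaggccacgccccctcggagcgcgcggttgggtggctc
Pola2: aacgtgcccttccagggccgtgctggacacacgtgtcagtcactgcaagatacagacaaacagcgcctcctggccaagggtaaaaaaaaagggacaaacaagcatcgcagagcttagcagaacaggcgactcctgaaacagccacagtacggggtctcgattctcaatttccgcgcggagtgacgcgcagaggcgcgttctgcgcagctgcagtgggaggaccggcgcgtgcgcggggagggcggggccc

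The plasmid was checked first. Thbs4 had 38063, 25754, 36630 and 31675 counts in the TSP-4 plasmid libraries A to D, against 2, 11, 8 and 3 counts in the empty plasmid libraries. That is a mean of 1783 ± 288 CPM in TSP-4 plasmid libraries and of 0.327 ± 0.254 CPM in empty plasmid libraries (counts scaled to library size with TMM factors, SD, n = 4 each). It was the only gene of all those tested called by edgeR's quasi-likelihood test at an adjusted p of 0.05 without a block (log2 fold change 12.45, 95% interval 11.68 to 13.21, adjusted p = 1.93e-06). Libraries held 17123735 to 22530947 counts. The 8 fibroblast markers summed to 7793 to 10680 CPM in the TSP-4 plasmid libraries and 7776 to 11060 CPM in the empty plasmid libraries. The 12 macrophage markers, all present, summed to 312 to 1783 and 348 to 1463 CPM, and the 8 endothelial markers to 50.6 to 73.1 and 51.9 to 85.5 CPM. Of 8 cardiomyocyte markers 1 passed the filter and 5 were at 0 in at least 1 library.

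The D-type cyclins Ccnd1 and Ccnd2 had the highest levels per length of the 47 genes. FPKM, the authors' count scaled to gene length and library size, is used for levels between genes. Ccnd1, the D-type cyclin that answers growth factors, was highest at 191 ± 29.8 FPKM with the TSP-4 plasmid and 193 ± 19.7 FPKM with the empty plasmid (SD, n = 4 each, here and for the next levels). Ccnd2, a second D-type cyclin, had 133 ± 6.31 and 128 ± 4.59 FPKM. Cdk4, the kinase partner of the D-type cyclins, had 46.8 ± 1.60 and 48.9 ± 1.36 FPKM. The ranges of these 3 genes over the 8 libraries did not overlap. Rrm1, Rpa1, Pcna and Ccnd3 followed between 19.7 and 24.1 FPKM as group means, and their ranges over the libraries overlapped. At the lower end were Mcm10 at 0.836 ± 0.302 and 0.871 ± 0.0432 FPKM and Fen1, the flap nuclease of Okazaki fragments, at 0.746 ± 0.143 and 0.803 ± 0.105 FPKM, the lowest of all.

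Subunits of one complex did not have one level. The 6 MCM helicase subunits ran from 5.46 FPKM for Mcm2 to 11.1 FPKM for Mcm4 with the TSP-4 plasmid, and from 6.25 to 11.6 FPKM for the same genes with the empty plasmid. The 4 GINS subunits lay further apart. Gins4 had 17.6 ± 1.69 FPKM with the TSP-4 plasmid and 17.6 ± 1.68 FPKM with the empty plasmid, while Gins1 had 0.845 ± 0.284 and 1.09 ± 0.284 FPKM. Rrm1, the large subunit of ribonucleotide reductase, had 24.1 ± 3.17 and 22.6 ± 3.34 FPKM, and its S phase partner Rrm2 had 10.7 ± 3.37 and 12.0 ± 2.51 FPKM. In GENCODE M21, exons of 20 of the 47 genes overlap exons of another gene, for 3 of them over more than 20% of their bases. For these 3, genes on the opposite strand cover 84.2% of the exon bases of Fen1, 67.3% of those of Gins2 and 23.4% of those of Ccnd1. Below that limit, Cdk4 has 19.7% covered on the opposite strand and Ccne2 17.4%. The strand setting of the counting is not given in the sources used here. Reads of such neighbours may therefore be part of the level of any gene overlapped on the opposite strand. Reads in the shared stretches may equally have been left out of it. Neither was tested, so the levels of Fen1 and Gins2 may be too high or too low.

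**Figure D1:**
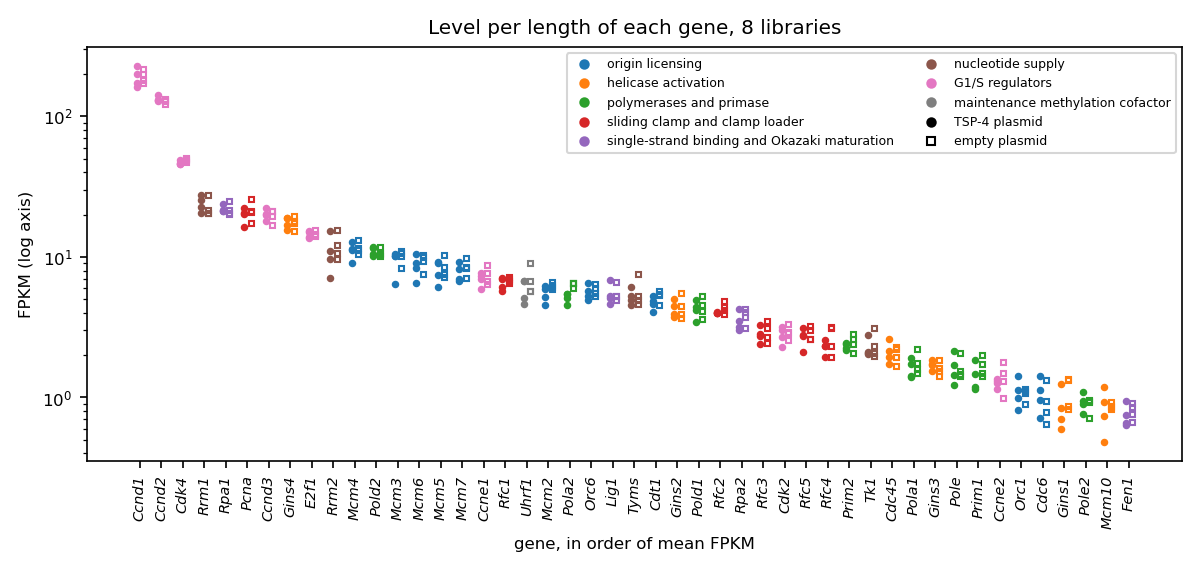
FPKM (log axis) of the 47 genes in each library, in order of their mean, with TSP-4 plasmid libraries as filled circles on the left and empty plasmid libraries as open squares on the right of each gene, coloured by role. Ccnd1, Ccnd2 and Cdk4 stand above the rest, and Fen1 is lowest at 0.746 and 0.803 FPKM as group means.

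No replication gene differed between the plasmids past the threshold. At an adjusted p of 0.05, edgeR's quasi-likelihood test called 0 of the 47 higher and 0 lower with the TSP-4 plasmid, where over all genes it called 0.00679% higher and 0% lower. With a replicate block made of the letters the calls were again 0 and 0, against 0.00679% of all genes higher and 0.00679% lower. The smallest adjusted p among the 47 was 0.999968 without the block and 0.339 with it, for Pola2. The 95% intervals of the fold change bound what was measured. They lay within 2-fold in either direction for 46 of the 47 genes, the exception being Gins1, and within 1.5-fold for 40. Over all genes tested these shares were 88.5% and 70.5%. With the block 47 and 46 of the 47 lay within those limits, against 95.3% and 81.3% of all genes.

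Small differences below 0 were more frequent than above it. The log2 fold change of TSP-4 plasmid over empty plasmid was below 0 for 36 of the 47 genes (76.6%), against 50% of all genes tested. Its median over the 47 was -0.07, against -0.0001 over all genes, and the values ran from -0.37 for Gins1 to 0.19 for Cdc6. The 47 genes share libraries and move together across them, so this count is not a count of independent events. The median rested on a few libraries: it was -0.01 without empty plasmid B, -0.02 without TSP-4 plasmid A, -0.11 without empty plasmid A and -0.15 without TSP-4 plasmid B. Within letters the median paired difference was -0.10 in A, -0.06 in B, -0.03 in C and -0.02 in D, with 36, 35, 30 and 29 of the 47 genes lower. Over all genes 48.8%, 52%, 50.2% and 48.9% were lower in these 4 letters.

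Lower with the TSP-4 plasmid in 4 of 4 letters were 13 of the 47 genes (27.7%), against 8.04% of all genes, and higher in 4 of 4 was 1, Cdc6, against 8.03%. The 13 were Cdt1, Mcm2, Mcm3, Mcm4, Mcm7, Gins1, Pola1, Pola2, Pcna, Rpa2, Rrm2, Cdk4 and Uhrf1. At an unadjusted p under 0.05 without the block 1 gene was lower, Pola2, against 0.944% of all genes, and 0 were higher, against 0.652%. With the block 7 were lower (Cdt1, Mcm2, Mcm6, Pola2, Pcna, Rrm2 and Uhrf1), against 3.98% of all genes, and 0 higher, against 4.14%. None of these 7 passed the adjusted threshold. The libraries of the groups did not overlap for 1 gene, Pola2, which was lower with the TSP-4 plasmid. Of all genes 0.863% did not overlap in that direction and 0.652% in the other, where none of the 47 lay.

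**Figure D2:**
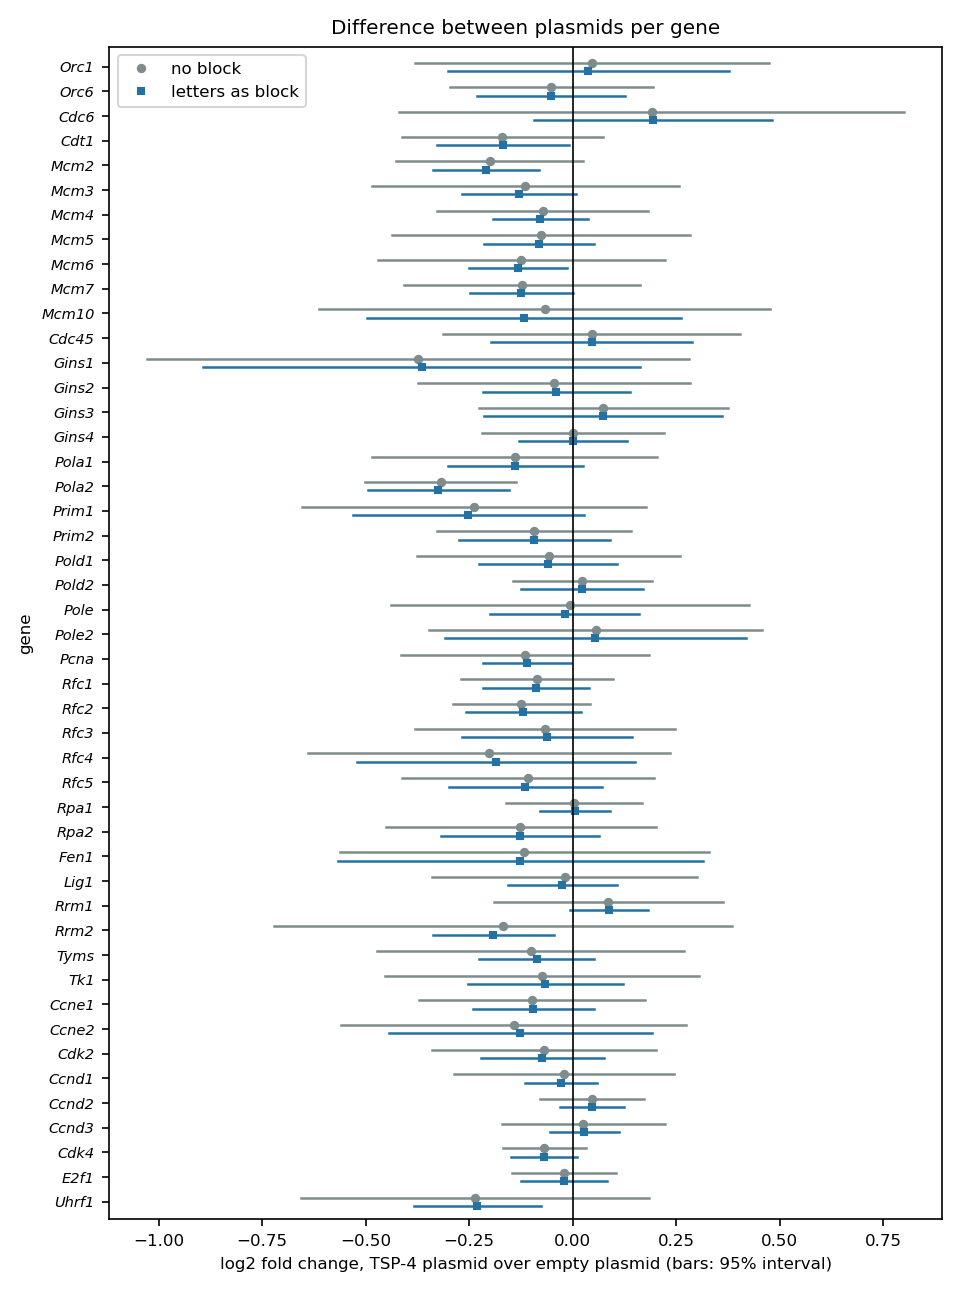
Log2 fold change of TSP-4 plasmid over empty plasmid for each gene with its 95% interval from edgeR, without a block (grey circles) and with the letters as block (blue squares), 4 libraries a group. Without the block the interval of Pola2 is the only one that does not cross 0.

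Among the 10 licensing genes, 8 had fold changes below 0 and 5 were lower in 4 of 4 letters, and none passed the test. Mcm2 (ENSMUSG00000002870, chr6:88883474-88898780, minus strand), a subunit of the replicative helicase, had 31.4, 43.6, 36.3 and 41.1 CPM in the TSP-4 plasmid libraries A to D, against 40.9, 44.6, 43.0 and 46.6 CPM in the empty plasmid libraries. It was lower in every letter, though the groups overlapped because TSP-4 plasmid B and D lay above empty plasmid A. Its log2 fold change was -0.20 without the block (95% interval -0.43 to 0.03) and -0.21 with it (-0.34 to -0.08), and edgeR's adjusted p with the block was 0.419. Mcm6, another helicase subunit, had 30.6, 49.6, 42.0 and 38.8 CPM in TSP-4 plasmid libraries, against 35.3, 48.6, 47.5 and 43.9 CPM in empty plasmid libraries. The groups overlapped over most of their range, and in both A was the lowest library and B the highest. The adjusted p of Mcm6 with the block was 0.560 in edgeR.

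Cdt1, which loads the helicase, had 12.7, 15.3, 14.6 and 16.5 CPM in TSP-4 plasmid libraries, against 14.2, 18.3, 16.96 and 17.05 CPM in empty plasmid libraries. It was lower in each letter with overlapping groups, and the log2 fold change with the block was -0.17 (95% interval -0.33 to -0.01, edgeR's adjusted p = 0.578). Cdc6, the other loader, had 3.75, 7.53, 5.02 and 5.96 CPM in TSP-4 plasmid libraries, against 3.38, 7.01, 4.99 and 4.12 CPM in empty plasmid libraries. The values of C were nearly the same in both groups, and the interval of its log2 fold change, -0.42 to 0.80, was among the widest. Mcm3, Mcm4, Mcm5 and Mcm7 had log2 fold changes from -0.12 to -0.07. The origin recognition subunits Orc1 and Orc6 had 0.05 and -0.05.

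None of the 6 helicase activators passed the test, and 3 were below 0. Mcm10, which joins the helicase at origin firing, had 3.70, 9.24, 7.21 and 5.68 CPM in TSP-4 plasmid libraries, against 6.62, 7.25, 6.47 and 6.62 CPM in empty plasmid libraries. Its TSP-4 plasmid libraries reached both below and above all empty plasmid libraries, so the spread and not the mean was unlike between the groups, a difference that was not tested. Gins1 had 1.26, 0.913, 1.89 and 1.07 CPM in TSP-4 plasmid libraries, against 1.32, 2.06, 2.04 and 1.25 CPM in empty plasmid libraries. It was lower in every letter, on 16 to 40 counts per library, and its interval of -1.03 to 0.28 reached past 2-fold. Cdc45, Gins2, Gins3 and Gins4 had log2 fold changes from -0.05 to 0.07.

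Of the polymerase genes, 6 of 8 had fold changes below 0, and the 4 with the most negative were the subunits of polymerase alpha and primase. Pola2 (ENSMUSG00000024833, chr19:5940543-5964206, minus strand), the B subunit of polymerase alpha, had 13.0, 15.7, 14.8 and 15.7 CPM in the TSP-4 plasmid libraries, against 18.7, 17.4, 18.9 and 18.7 CPM in the empty plasmid libraries. All 4 TSP-4 plasmid libraries lay below all 4 empty plasmid libraries, on 250 to 399 counts per library. Its log2 fold change came to -0.32 (SE 0.081, 95% interval -0.50 to -0.14, unadjusted p = 0.00334 in edgeR) without the block and -0.32 (-0.49 to -0.15) with it. It lay between -0.35 and -0.26 with each library left out in turn, and the smallest adjusted p of any edgeR, DESeq2 or limma fit was 0.226, from edgeR with the block and letter B left out. Its complex partners Pola1, the catalytic subunit, and Prim1 and Prim2, the primase, had log2 fold changes of -0.14, -0.24 and -0.09, each with an interval that crossed 0. The polymerase delta and epsilon genes Pold1, Pold2, Pole and Pole2 lay between -0.06 and 0.06.

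All 6 clamp and clamp loader genes had fold changes below 0, from -0.20 for Rfc4 to -0.07 for Rfc3, and none passed the test. Pcna, the sliding clamp, had 39.1, 53.7, 48.9 and 49.2 CPM in TSP-4 plasmid libraries, against 41.9, 62.6, 51.4 and 50.7 CPM in empty plasmid libraries. It was lower in each letter, and the groups overlapped since letters B, C and D of each plasmid lay above letter A of the other. Its log2 fold change was -0.11 with or without the block, and edgeR's adjusted p with the block was 0.584. Rfc1, Rfc2 and Rfc5, further subunits of the loader that opens the clamp, had -0.09, -0.12 and -0.11.

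For single-strand binding and Okazaki fragment processing, 3 of 4 genes were below 0 and none passed. Rpa1, the large subunit of the single-strand binding protein RPA, had 133, 119, 120.5 and 119 CPM in TSP-4 plasmid libraries, against 139, 117, 122 and 113 CPM in empty plasmid libraries. It was highest in A in both groups, and its log2 fold change was 0.00 (95% interval -0.16 to 0.17). Fen1 had 1.58, 1.83, 1.54 and 2.30 CPM in TSP-4 plasmid libraries, against 2.21, 1.65, 1.88 and 2.09 CPM in empty plasmid libraries, groups that overlapped fully. Rpa2, a further RPA subunit, and Lig1, the ligase that seals the fragments, had log2 fold changes of -0.13 and -0.02.

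For nucleotide supply, 3 of 4 genes were below 0 and none passed. Rrm2 (ENSMUSG00000020649, chr12:24708241-24714146, plus strand), the S phase subunit of the enzyme that makes deoxyribonucleotides, had 19.6, 42.3, 30.5 and 27.0 CPM in TSP-4 plasmid libraries, against 26.8, 43.2, 34.3 and 29.7 CPM in empty plasmid libraries. It was lower with the TSP-4 plasmid in every letter, while the letters themselves differed by more. The log2 fold change was -0.17 (95% interval -0.72 to 0.39) without the block and -0.19 (-0.34 to -0.05) with it, where edgeR's adjusted p was 0.478. Rrm1 had 279.5, 307, 251 and 226 CPM in TSP-4 plasmid libraries, against 237, 307, 229.9 and 229 CPM in empty plasmid libraries. The groups overlapped, and its log2 fold change of 0.09 ran against that of Rrm2. Tyms, which makes thymidylate, and Tk1, which salvages thymidine, had -0.10 and -0.07.

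Of the 8 G1/S regulators 6 were below 0, and none passed. Ccnd1 had 762, 947, 816 and 1082 CPM in TSP-4 plasmid libraries, against 857, 948, 824 and 1029 CPM in empty plasmid libraries. Ccnd2 had 1335, 1210.0, 1239 and 1236 CPM in TSP-4 plasmid libraries, against 1231, 1219.8, 1160.0 and 1247 CPM in empty plasmid libraries. For both cyclins the groups overlapped. The range was wider with the TSP-4 plasmid for each. That of Ccnd1 reached both lower and higher than with the empty plasmid, and that of Ccnd2 reached only higher. Cdk4 had 148, 153, 148 and 160.1 CPM in TSP-4 plasmid libraries, against 161, 159, 155 and 164 CPM in empty plasmid libraries, lower in every letter with a log2 fold change of -0.07 (95% interval -0.17 to 0.03). Its groups overlapped through TSP-4 plasmid D, which lay above empty plasmid B and C. Ccne1, Ccne2 and Cdk2, the cyclin E genes and their kinase, had log2 fold changes of -0.10, -0.14 and -0.07, Ccnd3 had 0.03, and E2f1, one of the E2F factors, had -0.02. Uhrf1, which brings the maintenance methyltransferase Dnmt1 to newly copied DNA, had 19.8, 28.9, 28.7 and 22.0 CPM in TSP-4 plasmid libraries, against 24.4, 39.2, 28.9 and 24.6 CPM in empty plasmid libraries. It was lower in each letter, by least in C and by most in B, and the groups overlapped. It had a log2 fold change of -0.24 (95% interval -0.66 to 0.18) without the block and -0.23 (-0.38 to -0.08) with it, with an adjusted p of 0.425 in edgeR.

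In the fit with letter and plasmid as terms, 4134 of all genes tested differed between letters and 2 between plasmids, and the replication genes had an order of letters. Between the 4 letters, with plasmid as a covariate, edgeR's quasi-likelihood F test called 25 of the 47 genes at an adjusted p of 0.05 (53.2%), against 28.1% of all genes tested. DESeq2's likelihood ratio test called 15 of the 47. Its share over all genes is not given here, so that count cannot be set against the 28.1%, which is edgeR's. By role the 25 called by edgeR were 7 of 10 licensing genes (Cdc6 and Mcm2 to Mcm7), 2 of 6 helicase activators (Gins2, Gins4), 3 of 8 polymerase genes (Pola1, Pold1, Pole), 1 of 6 clamp genes (Pcna), 3 of 4 in single-strand binding and Okazaki processing (Rpa1, Rpa2, Lig1), 4 of 4 in nucleotide supply, 4 of 8 G1/S regulators (Ccne1, Cdk2, Ccnd1, Ccnd3) and Uhrf1. The smallest adjusted p values in edgeR were 5.74e-05 for Rrm2, 0.000366 for Ccnd1, 0.0004 for Mcm6 and 0.000553 for Pcna. Since each letter has 1 library of each plasmid, the test measures letters against the spread within letters, and what a letter stands for is not stated.

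Letter B was the high one and letter A the low one. The mean of the libraries of a letter was highest in B for 33 of the 47 genes (70.2%), against 25.0% of all genes, and lowest in A for 28 (59.6%), against 28.3%. It was highest in B and lowest in A together for 23 (48.9%), against 9.08%. The order was found in each plasmid on its own: B was highest for 31 genes in TSP-4 plasmid libraries and for 34 in empty plasmid libraries, 27 of them shared, and A was lowest for 30 and 22, 19 of them shared. The median difference of B over A was 0.39 on the log2 scale, against 0.01 for all genes. Relative to each gene's mean, the median of the 47 was -0.24, 0.13, -0.02 and -0.06 in TSP-4 plasmid libraries A to D, and -0.10, 0.24, 0.01 and 0.01 in empty plasmid libraries. TSP-4 plasmid A was thus the lowest library and empty plasmid B the highest.

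**Figure D3:**
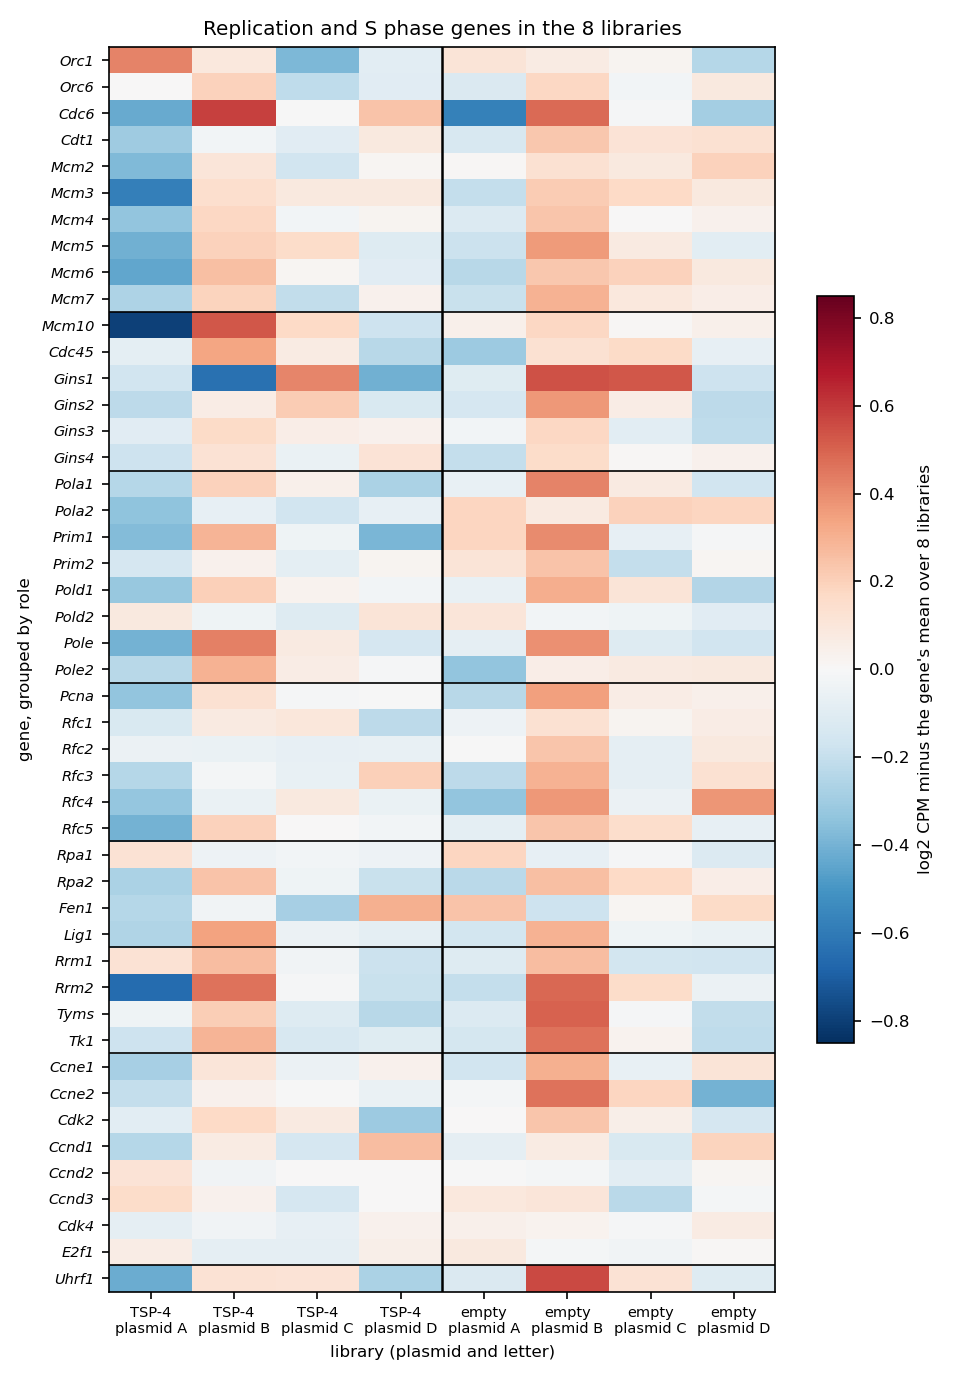
Log2 CPM of the 47 genes minus each gene's mean over 8 libraries, as colour from blue (lower) to red (higher), with TSP-4 plasmid libraries A to D on the left, empty plasmid libraries A to D on the right, and genes grouped by role. Library B is mostly red in both groups, library A is mostly blue with the TSP-4 plasmid and paler with the empty plasmid, and Ccnd2, Cdk4 and E2f1 are pale throughout.

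The widest ranges between letters were in genes of licensing, nucleotide supply and helicase activation. The letter means of Cdc6 spanned 1.01 on the log2 scale, from A to B, and those of Rrm2 spanned 0.90, also from A to B. For both genes B was highest and A lowest in each plasmid. Gins1 and Mcm10 spanned 0.71 each without passing the test, and the libraries of one letter lay far apart, those of B for Gins1 and those of A for Mcm10. The median range was 0.43 for the 47 genes and 0.30 for all genes tested. Cdk4 and Ccnd2 spanned the least, 0.09 and 0.10, and neither was called. A different order was found for Ccnd1, which was highest in D, and for Rpa1, which was highest in A in both groups.

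**Figure D4:**
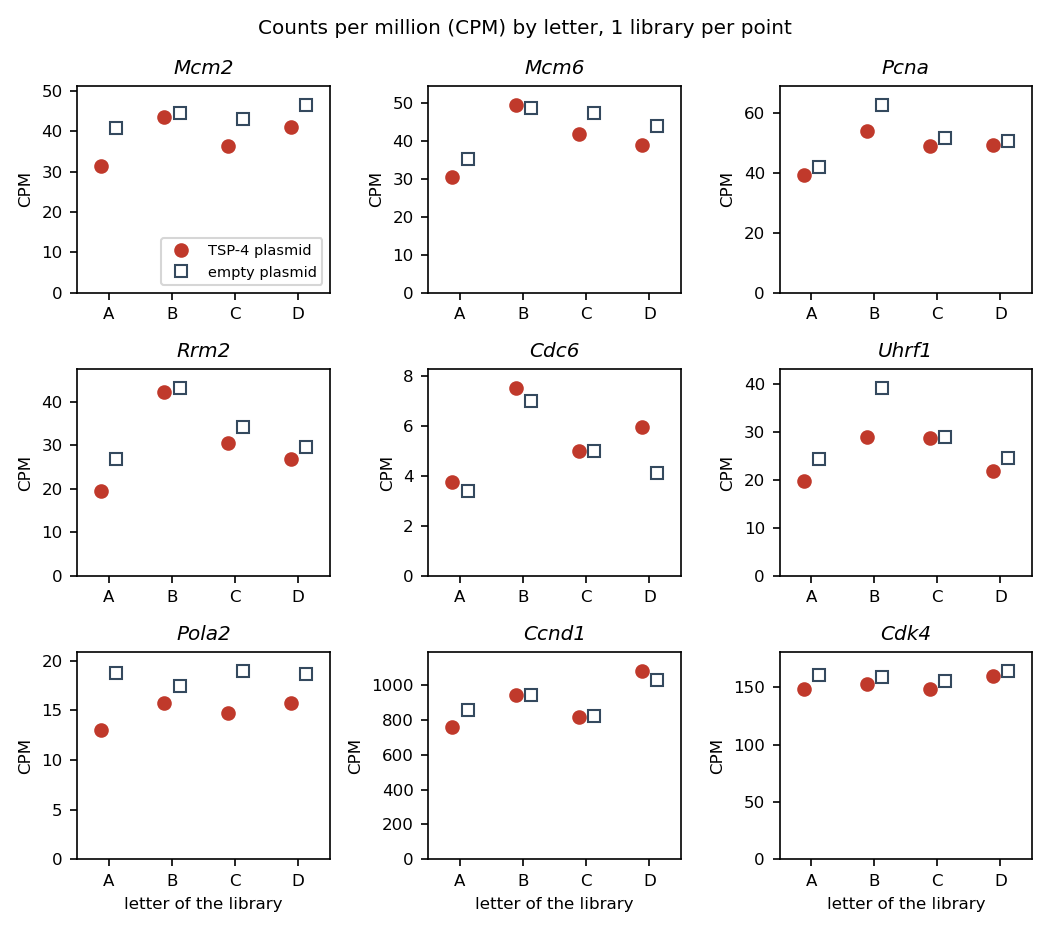
CPM of 9 genes by letter, 1 library per point, with the TSP-4 plasmid as filled circles left of the empty plasmid as open squares and each vertical axis starting at 0. Mcm6, Pcna, Rrm2, Cdc6 and Uhrf1 are highest in B and lowest in A in each plasmid, Pola2 is lower with the TSP-4 plasmid in every letter, and Ccnd1 is highest in D.

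The E2F octamer was set against the order of letters. Of the 15 genes with a match 10 were called between letters and 12 were highest in B, with a median letter range of 0.47. Of the 22 genes with a promoter and no match 10 were called and 14 were highest in B, with a median range of 0.42. The log2 fold change between plasmids was below 0 for 11 of the 15 and 17 of the 22. These counts are descriptions, since the genes of each set share the same 8 libraries. For some genes, such as E2f1 among those without a match, the window lay inside the gene and the sequence before its first base was not searched.

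Summed levels of marker genes, which were not tested, also varied by letter. The macrophage markers summed to 330, 919, 1623 and 737 CPM as means of letters A, B, C and D, so they were lowest in A but highest in C. Markers of fibroblasts, the cultured cells themselves, summed to 9863, 10870, 9388 and 7785 CPM, highest in B and lowest in D. Endothelial markers summed to 73.6, 51.2, 75.6 and 67.8 CPM, lowest in B. Each sum is weighted to the highest genes of its list. Of the fibroblast markers, Col1a1 had 835.5 FPKM with the TSP-4 plasmid and 786.9 FPKM with the empty plasmid. Col1a2 had 256.4 and 241.5 FPKM, and Tcf21, the next, 57.83 and 51.8 FPKM. The highest macrophage marker was Lyz2, at 397.0 and 373.8 FPKM. The part of the marker genes in the levels of the replication genes was not tested.

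Mitosis genes shared the high letter but not the low one. All 20 genes of a mitosis list differed between letters, and all 20 were highest in B and lowest in D, where 9 of the 47 replication genes were lowest. The median deviation of the mitosis genes was -0.16, 0.48, 0.09 and -0.42 in letters A to D, against -0.18, 0.20, -0.01 and -0.02 for the replication genes. Their median letter range was 0.90. Mki67, the proliferation antigen, had 31.6, 49.9, 38.8 and 25.6 CPM in TSP-4 plasmid libraries, against 36.7, 54.3, 42.4 and 28.8 CPM in empty plasmid libraries. It was lower with the TSP-4 plasmid in each letter, the only mitosis gene that was, and did not pass the test. Cdc20, which activates the anaphase-promoting complex and had the highest level of the list at 13.5 FPKM in TSP-4 plasmid and 15.3 FPKM in empty plasmid libraries, had 22.9, 32.5, 25.5 and 20.2 CPM in TSP-4 plasmid libraries, against 24.2, 42.6, 29.4 and 18.8 CPM in empty plasmid libraries. Between plasmids 19 of the 20 had fold changes below 0, with a median of -0.08, and 0 were called by edgeR. At an unadjusted p under 0.05 there were 0 without the block and 1 of 20 with it, Mki67, which was lower. With the block 3.98% of all genes were lower at that p. The difference between replication and mitosis genes in letters A and D was not tested.

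**Figure D5:**
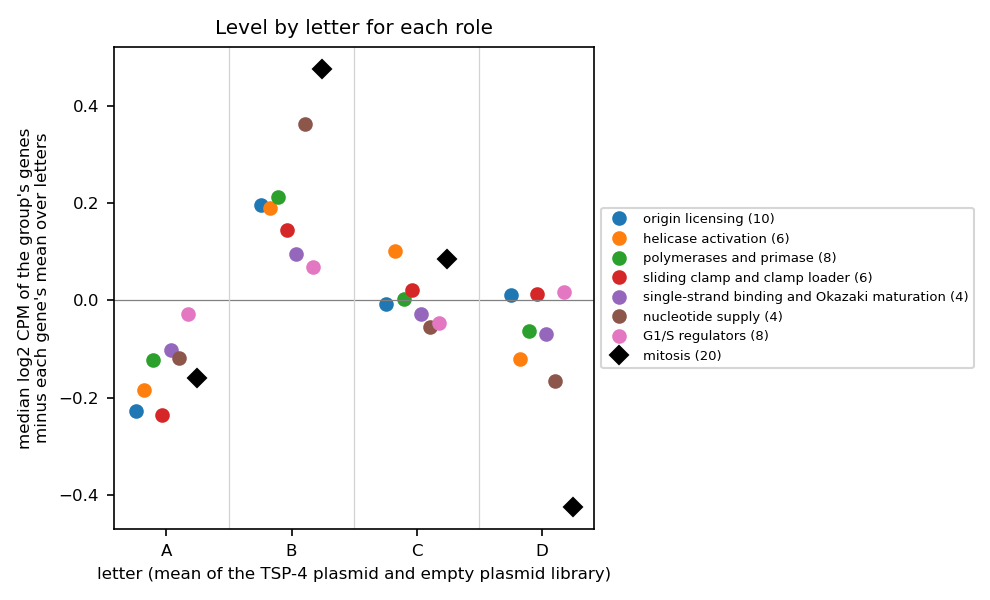
Median log2 CPM of the genes of each role minus each gene's mean over letters, for letters A to D as the mean of the TSP-4 plasmid and empty plasmid library, with the number of genes in brackets and the mitosis genes as black diamonds. All roles are highest in B, nucleotide supply most of them, and the mitosis genes are lowest in D at -0.42 while licensing genes stand at 0.01 there.

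Further genes of the pathway came from lists of other factors, and edgeR called 0 of them between plasmids in each list, with 0 at an unadjusted p under 0.05 without the block. With the block 0 of 30 origin and fork factors, 2 of 10 chromatin copying genes and 1 of 8 nucleotide supply genes were lower at that p. In these lists 0 were higher. Of all genes 3.98% were lower and 4.14% higher. Of 30 other origin and fork factors 23 were below 0 the median log2 fold change being -0.06, and 3 differed between letters (Ticrr, Topbp1, Clspn). That is 10% of the list, a smaller share than the 28.1% of all genes. Orc2, an origin recognition subunit, had the smallest p of the list, with a mean of 17.8 ± 0.663 CPM in TSP-4 plasmid libraries and of 18.9 ± 0.598 CPM in empty plasmid libraries (SD, n = 4 each). Pold4, a small subunit of polymerase delta, had the highest level at 41.2 FPKM in TSP-4 plasmid and 41.3 FPKM in empty plasmid libraries and a log2 fold change of -0.01. Of 10 genes that copy chromatin at the fork 10 were below 0, with a median of -0.10, and 3 differed between letters (Chaf1b, Asf1b, Hells), or 30%. Hells, a chromatin remodeller, had 7.40, 10.4, 10.3 and 9.50 CPM in TSP-4 plasmid libraries, against 8.36, 13.9, 10.9 and 13.3 CPM in empty plasmid libraries. It was lower in every letter with overlapping groups, and edgeR's adjusted p with the block was 0.459. Dnmt1, the maintenance methyltransferase that Uhrf1 recruits, had 69.3, 81.9, 74.5 and 76.8 CPM in TSP-4 plasmid libraries, against 77.0, 88.3, 79.1 and 78.9 CPM in empty plasmid libraries. It too was lower in each letter, and its adjusted p with the block was 0.575 in edgeR.

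Of 8 other nucleotide supply genes 5 were below 0, with a median of -0.08. Dtymk, the thymidylate kinase, had 25.7, 31.1, 25.2 and 27.5 CPM in TSP-4 plasmid libraries, against 28.6, 32.2, 29.8 and 30.2 CPM in empty plasmid libraries, lower in each letter with overlapping groups. Samhd1, which breaks deoxyribonucleotides down, had the highest level of that list at 22.1 FPKM in TSP-4 plasmid and 21.3 FPKM in empty plasmid libraries. Of 25 G1/S control genes 24 were tested (Cdkn1c, with 5 to 9 counts, was not), 13 were below 0 (54.2%) with a median of -0.04, and 10 differed between letters (41.7%). With the block 3 of the 24 were higher and 0 lower at an unadjusted p under 0.05 in edgeR, against 4.14% and 3.98% of all genes. Cdkn2b, which encodes the Cdk4 inhibitor p15, had 138, 103, 135 and 122 CPM in TSP-4 plasmid libraries, against 114, 102, 110.1 and 108 CPM in empty plasmid libraries. It was higher with the TSP-4 plasmid in each letter, by least in B, and the groups overlapped through TSP-4 plasmid B. Its log2 fold change was 0.20 (95% interval -0.00 to 0.40, unadjusted p = 0.0528 in edgeR) without the block, and its adjusted p with the block was 0.346. Rbl2, a pocket protein that holds E2F genes off in resting cells, was also higher in each letter, with a mean of 31.3 ± 3.78 CPM in TSP-4 plasmid libraries and of 27.9 ± 3.28 CPM in empty plasmid libraries (SD, n = 4 each), and did not pass. Cdkn1a, which encodes the inhibitor p21 and had the highest level of that list at 119 FPKM in TSP-4 plasmid and 122 FPKM in empty plasmid libraries, averaged 423 ± 21.8 CPM in TSP-4 plasmid libraries and 435 ± 24.2 CPM in empty plasmid libraries.

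Outside these lists, 5 genes followed the replication genes most closely. Their log2 CPM was set against the mean of the 47 genes, each scaled to unit variance, over the 8 libraries. They were Klhl6, a kelch family protein, Ndc1, a transmembrane nucleoporin, Rtn2, a reticulon, Zbtb3, a zinc finger protein, and Ttc7, a tetratricopeptide repeat protein, in falling order, with Pearson correlations from 0.987 for Klhl6 to 0.964 for Ttc7. They are the top of the genes outside the lists, ranked over 8 points that fall into letters, so the values describe these libraries.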

How the data were processed

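Poly(A) RNA of 8 libraries was analysed, 4 per plasmid, with library preparation by NEBNext Ultra according to the protocols in the labels. HTSeq 0.6.1, Cufflinks 2.1.1, TopHat2 2.0 and CASAVA, with GRCm38.p6 and mm10, stand in the submitters' processing notes without roles. The authors deposited whole-number read counts per gene and FPKM values. Each deposited FPKM equals the deposited count divided by gene length and library total, times 1 constant per library, from 0.974 to 1.019. The strand setting is not given in the sources used here.

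Counts were tested as deposited with edgeR 4.0.16 in R 4.3.3 (quasi-likelihood, robust, TMM factors, filterByExpr with a minimum count of 10, plasmid as the only term), adjusted by Benjamini-Hochberg over all 14723 genes tested, with a threshold of 0.05. CPM of single genes were computed from the counts with TMM factors, with a prior count of 2 for log2 CPM. The summed CPM of marker genes used the library totals alone, without TMM factors. The differences between letters were tested in the same tool with plasmid as a covariate. Alternatives were DESeq2 1.42.0, limma 3.58.1 (voom), DESeq2's size factors, no filter, the letters as a replicate block, each library left out and each letter left out. The scripts were tested on simulated data first. Intervals cover the spread between libraries at a confidence level of 95%.

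The letters pair the libraries as found in the data: across genes, same-letter libraries deviated together from their plasmid means with r from 0.508 to 0.651, all above the limit of 0.1, while those of other letters lay between -0.57 and 0.323. The mean chi-square per gene between libraries was 4.94 at least, so none is a copy of another. Of 54409 gene IDs shared with GENCODE M21, 98.3% have the same coordinates there, and 46 of the 47 genes have the same exon length, the exception being Pola2. Promoters come from RefSeq (GRCm38.p6).

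The members and lists were chosen with earlier results of these data known. Values in every library are given for members with an unadjusted p under 0.05 or the 6 smallest p with the block, the 5 highest and the 1 lowest by FPKM, and the 4 with the widest range between letters. From other lists up to 3 genes with the smallest p and the highest by FPKM could be named. Pcna, Mki67 and the genes listed in brackets were added after their values were seen.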

Additional observations from a re-analysis of the deposited data

Results flagged for a closer look

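In each group of 4 libraries, a library was marked where its gap to the nearest of the others, as a share of the range of the group, exceeded Dixon's 95% limit for 4 values. Of 98 groups examined 7 were marked, where chance alone marks about 5%. These 7 are single libraries, and no explanation was tested.

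Mcm3, a helicase subunit, was low in TSP-4 plasmid A at 24.1 CPM (gap 0.892 of the range). Tk1, the thymidine kinase of S phase, was high in TSP-4 plasmid B at 14.5 CPM (0.86). Rpa1, of the single-strand binding complex, was high in TSP-4 plasmid A at 133 CPM (0.879). Pola2, the B subunit of polymerase alpha, was low in empty plasmid B at 17.4 CPM (0.847). Pole, the catalytic subunit of polymerase epsilon, was high in empty plasmid B at 23.5 CPM (0.861), and so was Rrm1 of ribonucleotide reductase at 307 CPM (0.892). Pole2, the second epsilon subunit, was low in empty plasmid A at 2.07 CPM (0.925). Of the 7, all but Rpa1 and Pola2 follow the order of letters, high in B or low in A.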

How the results depend on the processing

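None of the 47 genes was called between plasmids in any of the 19 alternative fits. The number below 0 stayed at 36 in the 7 alternative fits of all 8 libraries, and lay between 27 and 38 with 1 library left out and between 33 and 39 with a letter left out under the block. With 1 library left out the median log2 fold change of the 47 ran from -0.15 (without TSP-4 plasmid B) to -0.0066 (without empty plasmid B), and was -0.02 without TSP-4 plasmid A and -0.11 without empty plasmid A. Single genes changed sign in 46 of 376 values with a library left out (23 genes), in 17 of 188 with a letter left out (14 genes) and in 0 of 329 with all 8 libraries. The cause was not tested.

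With the replicate block 1 gene of all tested was called lower with the TSP-4 plasmid, against 0 without it, and limma voom and DESeq2's size factors with the block, both added after the data were seen, also gave 1. Leaving out a letter under the block gave 3 lower and 2 higher without A, 1 lower and 3 higher without B, and 1 lower without C, against 1 higher without a block, and no replication gene was among them. The block changed no call among the 47. Of the 47, genes called between letters were 15 in DESeq2, against 25 in the main edgeR fit, and 17 to 24 with 1 library left out. The shares over all genes in these other fits are not given here, so no excess over them is claimed. The levels of Gins1 (16 to 40 counts), Fen1 and other low genes are limited by depth. That of Fen1 may also be changed by its overlap with genes on the opposite strand, which was not tested.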
